A study of Mus musculus with 6 samples.

Results

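The heat shock proteins and J-domain proteins are the chaperones that fold, hold, refold or hand over other proteins. The members described here are the protein-coding genes whose symbol starts with *Hsp90*, or starts with *Hspa*, *Hspb*, *Dnaja*, *Dnajb* or *Dnajc* and goes on with a number, along with *Hspd1*, *Hspe1* and *Hsph1*. They number 72 of the 54309 gene identifiers measured, and the rule that picks them reads names alone. By family they are 13 *Hspa* genes (HSP70 and its relatives), 8 *Hspb* genes (small heat shock proteins), 3 *Hsp90* genes, 4 *Dnaja*, 13 *Dnajb* and 28 *Dnajc* genes (J-domain proteins), and the 3 single genes. By the known place of the protein they were grouped as 42 cytosolic and nuclear, 14 endoplasmic reticulum (ER), 9 mitochondrial and 7 other members.

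Tumors were grown from MCA205, a transplantable mouse fibrosarcoma cell line, under the skin of female C57BL/6J mice inoculated at 7 weeks of age. The control group drank milliQ water and the other group drank water holding FF-10101 at 0.1 mg/mL from day 1, and tumors were taken from both on day 8. FF-10101 is a covalent kinase inhibitor made against FLT3 that also inhibits CSF1R, the receptor on which macrophages depend, and the study asked what happened in tumors under this treatment. Bulk RNA of 3 tumors per group was sequenced, and the series description calls them biological replicates. All tumors come from 1 cell line, and RNA of tumor cells and host cells was measured together, so fewer cells of a type and less RNA per cell cannot be told apart.

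The libraries held 9143806 to 9643535 reads in the control group and 9277019 to 13258258 in the FF-10101 group, and values are given as normalized counts, which are reads scaled by a size factor for each tumor. Mesenchymal markers (9 genes, among them *Col1a1* and *Vim*) were present in all tumors, with a summed count of 106937 to 298824. They do not tell fibrosarcoma cells from host fibroblasts. Control tumor 1 stood apart from the other controls. Its summed count of 9 endothelial markers was 6961 against 2815 and 2328 in control tumors 2 and 3, and its sum of 6 proliferation markers was 4473 against 7806 and 8082. In the FF-10101–treated tumors the endothelial sums were 6966, 7500 and 7389 and the proliferation sums were 5739, 3677 and 3918, so this control tumor lay with the treated group in endothelial markers. In macrophage markers (8 genes) control tumor 1 lay farthest from the treated group. Its sum was 62157, against 35924 and 36087 in control tumors 2 and 3 and 22216, 30965 and 31018 in the treated tumors. Across all genes, 6 of 13963 passed an adjusted p of 0.05 with all tumors, whereas 3051 passed without control tumor 1. Members whose call turns on this tumor are given both ways, and for lists of related genes the count of such calls is given.

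HSP70 proteins bind short exposed stretches of unfolded proteins in cycles of ATP binding and hydrolysis. J-domain proteins bring substrates to HSP70 and start the hydrolysis, HSP110 proteins release the nucleotide, and HSP90 takes over clients such as kinases and hormone receptors late in folding. Small heat shock proteins hold unfolded proteins without ATP. In the cytosol, the inducible genes are switched on by the heat shock factor HSF1 when unfolded protein builds up, through the heat shock element (HSE) in their promoters. The ER has its own HSP70 (BiP, from *Hspa5*) and HSP90 (GRP94, from *Hsp90b1*), which are raised by the unfolded protein response, in part through the ER stress response element (ERSE). Mitochondria import their proteins with the HSP70 mortalin (*Hspa9*) and fold them in the HSP60 and HSP10 chamber (*Hspd1* and *Hspe1*).

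The promoters are shown first because these elements are known from stress-inducible members, whose values follow. RefSeq windows on GRCm38.p6, 250 bases before to 50 bases after a start, were found for 58 of the 72 members (*Hspa8*, *Hspa9*, *Hspa13*, *Hsp90aa1*, *Hsp90ab1*, *Hspb2*, *Dnajc2*, *Dnajc5*, *Dnajc5b*, *Dnajc11*, *Dnajc12*, *Dnajc18*, *Dnajc22* and *Dnajc30* had no match). The HSE was searched as GAANNTTC or TTCNNGAA, which each read the same on both strands and can overlap each other. Some genes have several windows, and it was present in 18 of 75 member promoters (24.0%) and in 4946 of all 32851 promoters (15.1%). By gene, 12 of 34 cytosolic and nuclear members with a window held it, as did 1 of 12 ER, 2 of 6 mitochondrial and 1 of 6 other members. The inducible HSP70 genes *Hspa1a* and *Hspa1b* lie close together on chromosome 17, and their windows differ at 4 of 300 bases, 3 of them before the start. The 250 bases before each start are shown 5′ to 3′ with the HSE in capitals, because the values of these 2 genes differed in direction between the groups.
Hspa1a (chr17:34972157-34972406, minus strand): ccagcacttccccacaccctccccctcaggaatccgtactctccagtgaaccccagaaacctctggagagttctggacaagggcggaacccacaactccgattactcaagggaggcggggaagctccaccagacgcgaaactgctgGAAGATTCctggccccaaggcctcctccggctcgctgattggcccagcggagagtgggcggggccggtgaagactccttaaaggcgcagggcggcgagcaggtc
Hspa1b (chr17:34959239-34959488, minus strand): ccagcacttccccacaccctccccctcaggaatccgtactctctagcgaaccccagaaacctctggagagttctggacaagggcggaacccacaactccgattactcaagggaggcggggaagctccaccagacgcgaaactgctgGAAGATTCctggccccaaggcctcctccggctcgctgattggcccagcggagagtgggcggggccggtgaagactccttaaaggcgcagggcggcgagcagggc
Shorter stretches show the element in other HSF1-inducible members, and in *Dnajb4*, whose 3 treated counts all lay above its 3 control counts. *Hspe1* and *Hspd1* are arranged head to head with 215 bases between their starts, so the 3 overlapping matches shown for *Hspe1* lie in the promoter of both. *Hsph1* held 2 further matches after its start, which are not shown, and neither are the matches of *Hspb1* (2) and *Hspb8* (1). *Dnajb1* held none of these letters in its windows.
Hspe1 (chr1:55088039-55088096, plus strand): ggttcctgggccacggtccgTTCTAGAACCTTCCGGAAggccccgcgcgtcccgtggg
Hsph1 (chr5:149636337-149636389, minus strand): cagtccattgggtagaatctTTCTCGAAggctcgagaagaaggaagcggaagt
Dnaja1 (chr4:40722324-40722371, plus strand): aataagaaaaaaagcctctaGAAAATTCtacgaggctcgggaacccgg
Dnajb4 (chr3:152193846-152193879, minus strand): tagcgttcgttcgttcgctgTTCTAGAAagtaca
The ERSE was searched on both strands by its letters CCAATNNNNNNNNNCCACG, and 39 of the 32851 promoters held it (0.119%). Of the member promoters 3 of 75 held it (4.0%), those of *Hspa5*, *Hsp90b1* and *Dnajc3*, which are all ER members. These are shown with the element in capitals, to set beside the ER values, and *Hsp90b1* held another match nearer its start. A match of letters is a description of the window and not evidence of a factor bound there.
Hspa5 (chr2:34772005-34772063, plus strand): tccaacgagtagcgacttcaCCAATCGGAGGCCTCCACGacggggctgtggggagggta
Hsp90b1 (chr10:86705618-86705676, minus strand): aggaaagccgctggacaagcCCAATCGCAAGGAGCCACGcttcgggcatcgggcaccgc
Dnajc3 (chr14:118937807-118937865, plus strand): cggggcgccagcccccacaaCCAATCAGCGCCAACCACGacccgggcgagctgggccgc

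The members together took 0.9964%, 1.1693% and 1.1255% of all reads in control tumors 1, 2 and 3 and 1.1969%, 1.0398% and 1.0931% in FF-10101–treated tumors 1, 2 and 3. These ranges overlapped. The 5 members with the highest counts held 63.07% of the members' summed count. Levels can be compared between genes only per transcript length, and on that scale the constitutive cytosolic chaperones led, with a mean over the 6 tumors of 9590 normalized counts per kb for *Hspa8* (the constitutive HSP70) and 8789 for *Hsp90ab1* (the constitutive HSP90). The ER pair followed with 3572 per kb for *Hsp90b1* and 3047 for *Hspa5*. The mitochondrial genes *Hspe1* (2389), *Hspa9* (1334) and *Hspd1* (1285) and the inducible HSP90 gene *Hsp90aa1* (1451) came next. In this order *Hspa8* and *Hsp90ab1* overlapped across tumors, and each gene from *Hsp90b1* to *Hspa9* overlapped with the next one down. The place of *Hspe1* rested on the group, since its mean was 3053 per kb in the controls, beside 2873 for *Hspa5*, and 1726 in the treated tumors, beside 3221. The most abundant small heat shock protein gene was *Hspb8* (690 per kb) and the J-domain gene with the highest mean was *Dnaja2* (688 per kb), which serves as a general partner of HSP70. *Dnaja2* overlapped across tumors with *Dnajc8* (651 per kb). *Dnaja1* had a higher mean count (2274 beside 2009) but was divided by a longer transcript. Of the inducible HSP70 genes *Hspa1b* lay at 474 per kb and *Hspa1a* at 16.2 per kb, and the division of reads between these near-identical genes is uncertain.

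**Figure D1:**
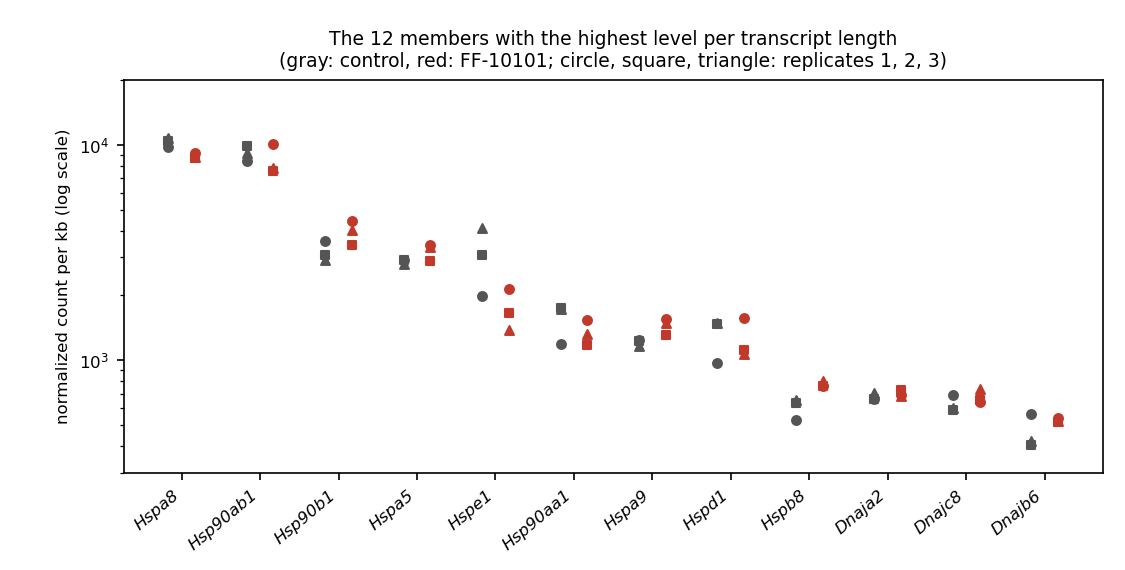
Normalized count per kb of transcript (log axis) of the 12 members with the highest level on that scale, 1 symbol per tumor, with control tumors in gray and FF-10101–treated tumors in red. *Hspa8* and *Hsp90ab1* lie between 7542.5 and 10772 per kb, and the other 10 genes lie at or below 4415 per kb in every tumor.

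Of the 72 members 63 reached the minimum mean of 10 normalized counts and were tested. No member passed an adjusted p of 0.05 in the limma fit over all genes, where 0.0430% of genes passed, and the smallest adjusted p of a member was 0.229. At an unadjusted p under 0.05, 5 members were higher (7.9% of those tested, beside 8.77% of all genes) and 5 were lower (7.9%, beside 7.49%). Groups did not overlap in 8 members with higher counts (12.7%, beside 10.9% of all genes) and in 5 with lower counts (7.9%, beside 9.37%). These shares were near the background, and the median log2 fold change of the 63 members was 0.05 beside 0.02 over all genes. Without control tumor 1, 4 members were higher at an adjusted p of 0.05 (6.3%, beside 12.0% of all genes) and 7 were lower (11.1%, beside 9.88%). The higher ones were *Hspa1b*, *Hspa4l*, *Dnajb4* and *Dnajc18*, and the lower ones were *Hspa1a*, *Hspe1*, *Dnajc9*, *Dnajc15*, *Dnajc19*, *Dnajc24* and *Hspa14*.

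By compartment, the direction of the fold changes was uneven. Among ER members 13 of 14 had a log2 fold change above 0, with a median of 0.24, and among mitochondrial members 8 of 9 had one below 0, with a median of -0.16. The cytosolic and nuclear members were split, with 20 of 34 above 0 and a median of 0.06, and of the other members 2 of 6 were above 0. Over all genes 7252 of 13963 were above 0. The ER and mitochondrial counts were identical when reads were scaled to the 75th percentile and under quantile normalization. With single tumors left out they ran from 11 to 13 of 14 above 0 in the ER and from 6 to 8 of 9 below 0 in mitochondria. The mitochondrial median was -0.26 without control tumor 1, and the cytosolic and nuclear median was 0.03 without it. These counts describe the lists and were not tested as lists. With each tumor left out in turn, the sign of the log2 fold change turned in 17 of the 63 tested members and the value moved by over 1.5 times in another 27, so the size of most of the small differences that follow rests on single tumors.

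**Figure D2:**
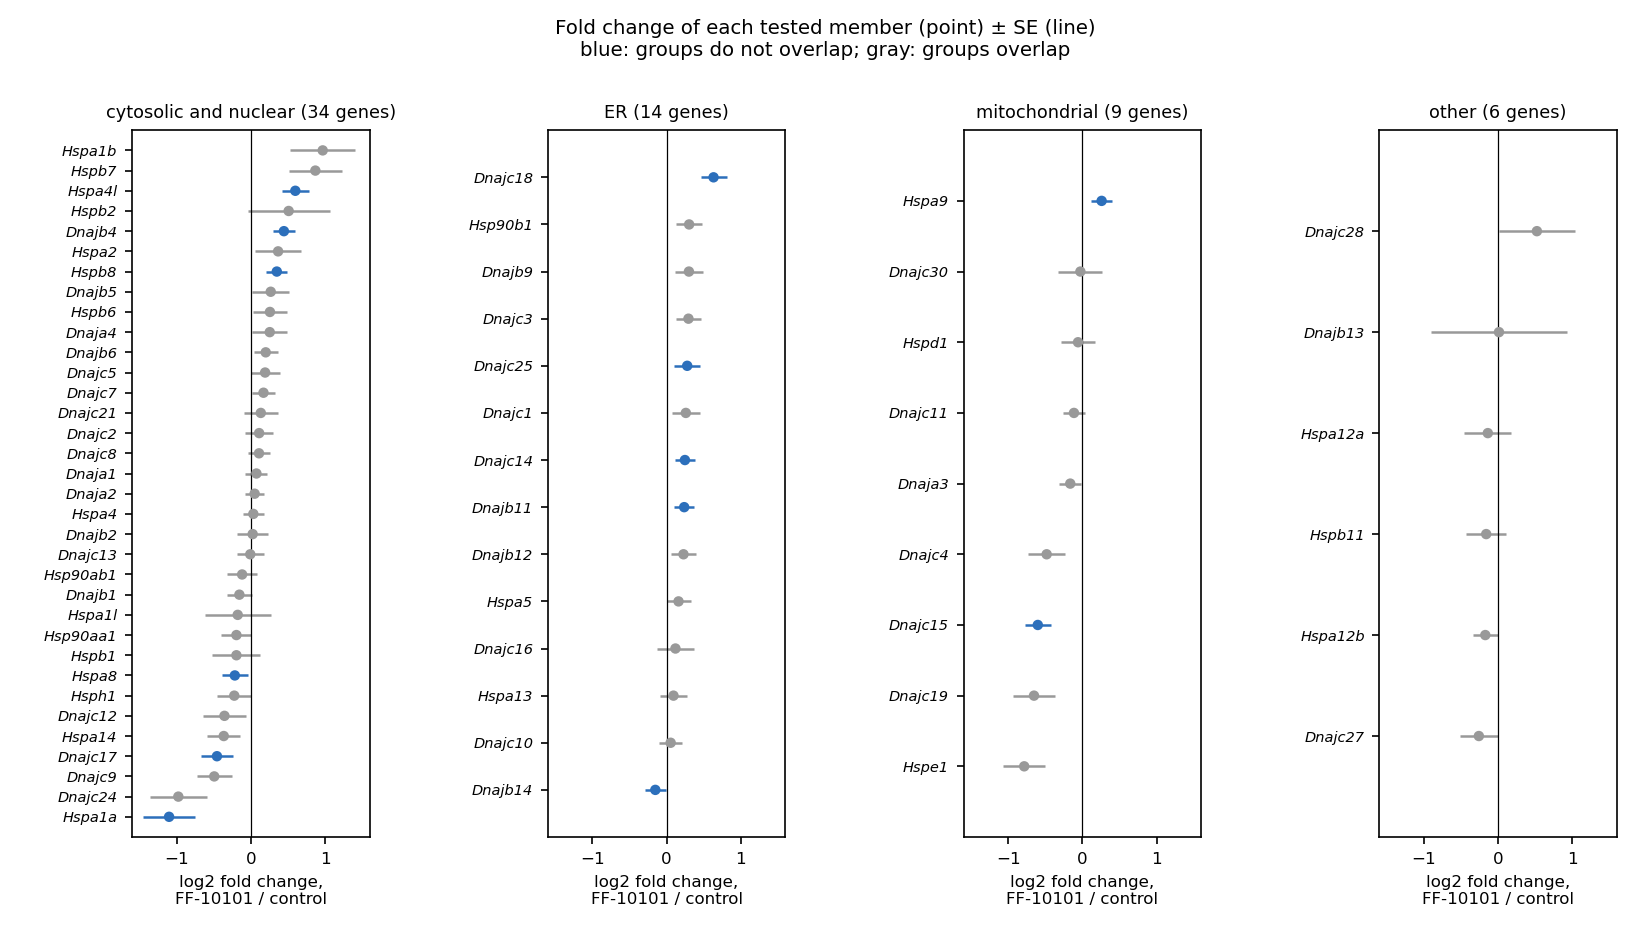
Log2 fold change of each of the 63 tested members (FF-10101 over control, points) with its standard error (lines), in 4 panels by the place of the protein, with genes whose groups do not overlap in blue. Most ER genes lie to the right of 0 and most mitochondrial genes to the left, and the members farthest from 0 are *Hspa1a* (-1.10), *Dnajc24* (-0.98) and *Hspa1b* (0.97).

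The inducible HSP70 genes gave opposite values. *Hspa1a* had normalized counts of 52.9, 80.4 and 63.2 in the control tumors and 25.97, 22.8 and 43.6 in the FF-10101–treated tumors. All 3 treated tumors lay below all 3 controls, with a log2 fold change of -1.10 ± 0.35 (SE, n = 3 per group) and a limma adjusted p of 0.235. *Hspa1b* had 1852, 662 and 488 in the control tumors and 1899, 1488 and 1589 in the treated tumors, so control tumor 1 lay among the treated tumors while the other controls were lower. Its log2 fold change was 0.97 ± 0.44 (SE, n = 3 per group) with a limma adjusted p of 0.324. Its size turned on single controls. It was 1.54 without control tumor 1 (adjusted p 0.00181), 0.79 without control tumor 2 (adjusted p 0.615) and 0.58 without control tumor 3 (adjusted p 0.738). That of *Hspa1a* was -1.24 without control tumor 1 (adjusted p 0.0424) and between -1.37 and -0.92 without any other single tumor, where it did not pass.

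The transcripts of these 2 genes share 2201 aligned bases at 99.2% identity, and Salmon divides such reads between copies by estimation, so their separate values are uncertain. *Hspa1a* took 2.78%, 10.8% and 11.5% of their summed count in the controls and 1.35%, 1.51% and 2.67% in the treated tumors. These shares did not overlap, though control tumor 1 (2.78%) lay close to treated tumor 3 (2.67%). An exact two-sided permutation test gave p = 0.1, the smallest that 3 against 3 allows. The share was not a planned result, and the test only restates that the groups did not overlap. Summed over both genes, the counts were 1905, 742 and 551 in the controls and 1925, 1511 and 1633 in the treated tumors (log2 fold change 0.87 ± 0.41, SE, n = 3 per group, limma adjusted p 0.337). The sum followed *Hspa1b*, and control tumor 1 again lay with the treated group. In the endothelial marker sums given above control tumor 1 also stood with the treated tumors, but the order of the treated tumors was the reverse. The mesenchymal sums were 264261, 138596 and 106937 in the controls and 298824, 212560 and 202617 in the treated tumors. There, as in the sum of these genes, treated tumor 1 was the highest and control tumor 1 came next. The part of cell makeup in the *Hspa1b* values was not tested. The immediate early genes, which respond to tissue handling (8 genes, among them *Fos* and *Egr1*), summed to 7590, 4933 and 5550 in the controls and 7188, 5439 and 5987 in the treated tumors. Here too control tumor 1 was the highest control, and the part of tissue handling was not tested.

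Most other HSF1-inducible members did not follow *Hspa1b*. *Hspb1* shared its order of controls (178, 123 and 99.8), and their correlation over the 6 tumors on the log2 scale was 0.212. Besides *Hspa1a* and *Hspa1b* the list of HSF1 targets held 8 members. They include *Hspa8*, which is mainly constitutive, and the mitochondrial *Hspd1* and *Hspe1*, which are described with their own groups, and 7 of the 8 (all but *Dnaja1*) had a log2 fold change below 0, with a median of -0.19. With single tumors left out, 6 or 7 of the 8 were below 0 and the median ran from -0.28 (without control tumor 1) to -0.11 (without control tumor 2). *Hsp90aa1* had 3908, 5720 and 5674 normalized counts in the controls and 5044, 3851 and 4365 in the treated tumors (log2 fold change -0.19 ± 0.20, SE). *Hsph1*, an HSP110 that releases nucleotide from HSP70, had 595, 990.0 and 769.8 in the controls and 822, 613 and 566 in the treated tumors (-0.22 ± 0.23). *Dnajb1*, the J-domain partner of inducible HSP70, had 582, 748 and 808 in the controls and 659.9, 588 and 657 in the treated tumors (-0.15 ± 0.17). In all 3 genes control tumor 1 was the lowest control and the groups overlapped, the reverse of its place for *Hspa1b*. With single tumors left out, the log2 fold change ran from -0.37 to -0.10 for *Hsp90aa1*, from -0.41 to -0.04 for *Hsph1* and from -0.29 to -0.06 for *Dnajb1*, lowest each time without control tumor 1. *Hspa8* made up 57.1% to 64.3% of the summed count of the list in each tumor. Without it the sums were 12955, 16636 and 17097 in the controls and 16383.5, 13038 and 13288 in the treated tumors, which overlapped. As in the proliferation sums, control tumors 3 and 2 were the highest and treated tumor 1 came next, though control tumor 1 was the lowest of all here, and the part of proliferation was not tested.

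*Hspb1*, which encodes the small heat shock protein HSP27, ranged from 99.8 to 178 in the controls and from 76.4 to 145 in the treated tumors. *Dnaja1*, a general J-domain partner, ranged from 1901 to 2413 and from 2276 to 2377. The log2 fold change was -0.19 ± 0.32 (SE) for *Hspb1* and 0.08 ± 0.15 (SE) for *Dnaja1*, and either value changed sign when control tumor 1 was left out. Over the 6 tumors, the correlations (r on the log2 scale) within the 10 HSF1-inducible members had a median of 0.467 over 45 pairs. The highest was 0.944, between *Hsp90aa1* and *Dnajb1*, and the lowest was -0.889, between *Hspa1b* and *Dnajb1*. These correlations describe 6 libraries that also share the group difference.

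The constitutive cytosolic pair was lower or overlapping. *Hspa8* had 23285, 24952 and 25788 normalized counts in the controls and 21820, 20817 and 21084 in the treated tumors. All treated tumors lay below all controls, though the step was small, with a log2 fold change of -0.22 ± 0.18 (SE, n = 3 per group) and a limma adjusted p of 0.561. The 5 near-identical copies of *Hspa8* in the annotation held a summed mean of 1.51 normalized counts, so they took almost none of its reads. *Hsp90ab1* had 21097, 24843 and 22988 in the controls and 25338, 19007 and 19608 in the treated tumors, which overlapped (-0.12 ± 0.20, SE, and from -0.25 without treated tumor 1 to -0.04 without treated tumor 2). *Hspa4*, the widely expressed HSP110, ranged from 2071 to 2294 in the controls and from 2106 to 2476 in the treated tumors (log2 fold change 0.03, or -0.03 without treated tumor 1).

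Another HSP110 gene, *Hspa4l*, was among the members with the largest difference. It had 861, 844 and 729.9 normalized counts in the controls and 1096, 1076 and 1568 in the treated tumors, which did not overlap (log2 fold change 0.60 ± 0.19, SE, n = 3 per group, limma adjusted p 0.233). *Dnajb4*, a J-domain protein of the same class as *Dnajb1*, had 331, 312 and 283 in the controls and 427, 399.5 and 434 in the treated tumors. Its groups did not overlap either, with a log2 fold change of 0.45 ± 0.15 (SE) and a limma adjusted p of 0.248. Without control tumor 1 the adjusted p was 0.0461 for *Hspa4l* and 0.0452 for *Dnajb4*, with log2 fold changes of 0.64 and 0.50. The 3 HSP110 genes gave -0.22 (*Hsph1*), 0.03 (*Hspa4*) and 0.60 (*Hspa4l*) on the log2 scale.

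**Figure D3:**
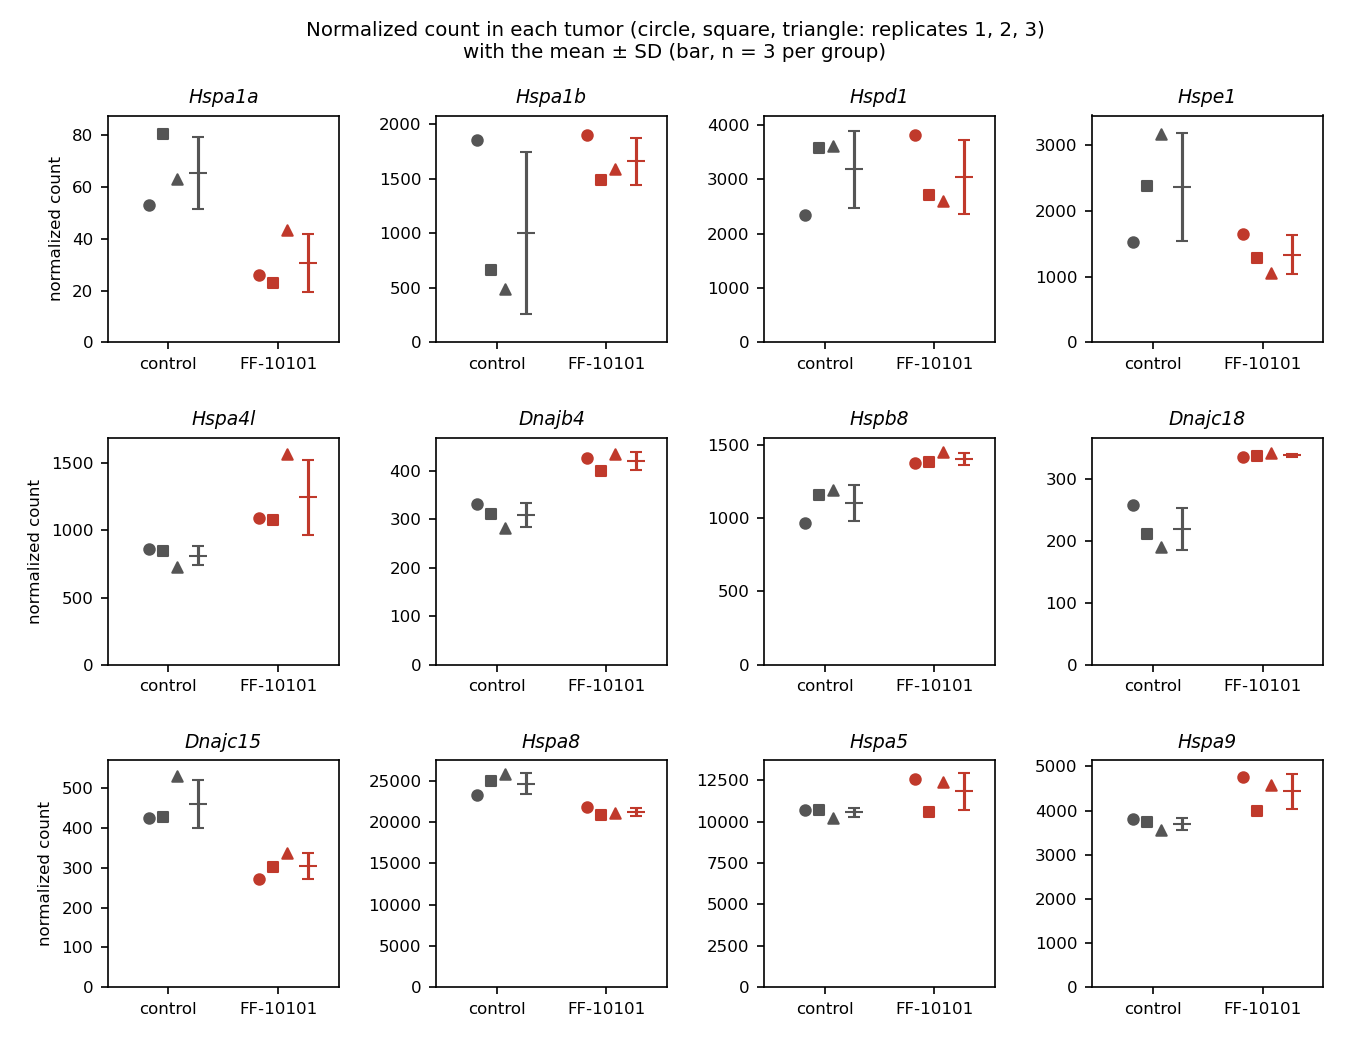
Normalized count (axes from 0) of 12 members in each tumor, control in gray and FF-10101–treated in red, with symbols for the replicate number and bars for the mean ± SD (n = 3 per group). The groups are apart for *Hspa1a*, *Hspa4l*, *Dnajb4*, *Hspb8*, *Dnajc18*, *Dnajc15*, *Hspa8* and *Hspa9* and overlap for *Hspa1b*, *Hspd1*, *Hspe1* and *Hspa5*, and control tumor 1 lies at 1852 with the treated tumors for *Hspa1b*.

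Of the small heat shock proteins, *Hspb8*, which works with BAG3 in the removal of damaged proteins, had 965, 1155 and 1194 normalized counts in the controls and 1375, 1383 and 1449.7 in the treated tumors. The groups did not overlap, and the log2 fold change was 0.35 ± 0.14 (SE, n = 3 per group) with a limma adjusted p of 0.293. Its partner *Bag3* had 685.5, 461 and 336 in the controls and 699, 583 and 483.5 in the treated tumors, which overlapped. As for *Hspa1b*, control tumor 1 was the highest control. The log2 fold change of *Bag3* was 0.30 ± 0.27 (SE), and 0.56 without control tumor 1 (limma adjusted p 0.0879). Without control tumor 1 the log2 fold change of *Hspb8* was 0.26 with an adjusted p of 0.165.

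*Hspb7*, *Hspb6* and *Hspb2*, which are known for their high level in heart and skeletal muscle, were chosen for description after their values were seen. *Hspb7* had 126, 74.98 and 94.3 normalized counts in the controls and 113, 281 and 173 in the treated tumors (log2 fold change 0.87 ± 0.36, SE, limma adjusted p 0.293). *Hspb6* had 239, 187 and 192 in the controls and 187, 312 and 252 in the treated tumors. *Hspb2* had 15.8, 10.9 and 14.4 in the controls and 15.3, 42.3 and 11.6 in the treated tumors. Treated tumor 2 was the highest of the 6 for each of these genes. It was also the highest in the sum of skeletal muscle markers, of which 12 of 12 were tested, with summed counts of 8117, 3858 and 5709 in the controls and 3732, 13620 and 8116 in the treated tumors. By single marker, *Myh4* was highest in control tumor 1, *Ckm* and *Pvalb* in control tumor 3, and the others in treated tumor 2. Without treated tumor 2 the log2 fold change was 0.54 for *Hspb7*, 0.08 for *Hspb6* and -0.02 for *Hspb2*, beside 0.87, 0.26 and 0.51 with all tumors. None of these markers was at 0 in every tumor, and the part of neighboring muscle in the 3 genes was not tested. *Hspb8* did not follow that order, since its lowest value was in control tumor 1, which had the next highest muscle sum together with treated tumor 3.

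**Figure D4:**
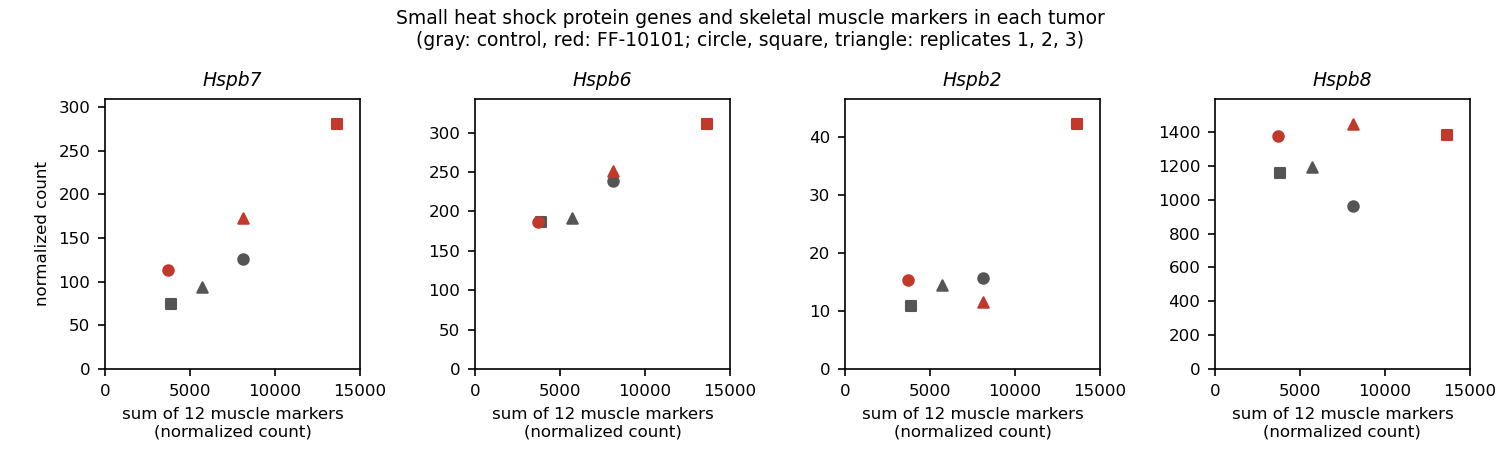
Normalized count of 4 small heat shock protein genes against the summed normalized count of 12 skeletal muscle markers, 1 symbol per tumor, with control in gray and FF-10101–treated in red. FF-10101–treated tumor 2, at a muscle sum of 13620, is the highest for *Hspb7* (281), *Hspb6* (312) and *Hspb2* (42.3), while the groups of *Hspb8* are apart on the vertical axis.

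Among the remaining cytosolic and nuclear members, *Dnajc17*, a nuclear J-domain protein linked to splicing, had 113, 92.4 and 122 normalized counts in the controls and 83.2, 79.3 and 73.8 in the treated tumors. All treated tumors were below all controls (log2 fold change -0.46 ± 0.22, SE, limma adjusted p 0.346). The next 3 genes were picked after their values were seen, because they passed an adjusted p of 0.05 without control tumor 1. *Dnajc24*, which serves in the synthesis of diphthamide on elongation factor 2, had 100.2, 209 and 274 in the controls and 88.6, 116 and 72.0 in the treated tumors. *Dnajc9*, a histone chaperone, had 391.7, 552 and 667 in the controls and 453, 360.4 and 316 in the treated tumors, and *Hspa14*, an HSP70 bound to ribosomes, had 455, 616 and 799 in the controls and 524, 439 and 456 in the treated tumors. In all 3, control tumor 1 was the lowest control and lay among the treated tumors, and control tumor 3 was the highest of all. With all tumors the log2 fold changes were -0.98 (*Dnajc24*, limma adjusted p 0.283), -0.49 (*Dnajc9*, 0.342) and -0.36 (*Hspa14*, 0.435). They were -1.39 (adjusted p 0.00955), -0.70 (0.0346) and -0.57 (0.0441) when control tumor 1 was left out. Without control tumor 3 they shrank to -0.67, -0.32 and -0.17. The proliferation marker sums given above were likewise lowest among controls in control tumor 1 and highest in control tumor 3, and the part of proliferation was not tested. The other tested cytosolic and nuclear members had log2 fold changes between -0.35 (*Dnajc12*) and 0.37 (*Hspa2*), and their groups overlapped.

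The ER members differed little but mostly in one direction. Their share of all reads was 0.264%, 0.279% and 0.258% in the controls and 0.331%, 0.289% and 0.329% in the treated tumors, which did not overlap. Their summed counts were 28700, 27678 and 26240 in the controls and 33564, 29074 and 33633 in the treated tumors. Most of these counts came from *Hspa5* and *Hsp90b1* in every tumor, and both genes overlapped between groups. The endothelial sums given above were likewise higher in every treated tumor and the controls stood in the same order, but treated tumor 2 was the highest treated tumor there and the lowest in the ER sums. Neutrophil sums were also higher in every treated tumor (3022, 2532 and 2723, beside 1923, 2240 and 1896 in the controls), with treated tumor 2 the lowest treated tumor. Macrophage sums were lower in every treated tumor. The mesenchymal sums were 264261, 138596 and 106937 in the controls and 298824, 212560 and 202617 in the treated tumors, which overlapped, and the part of cell makeup in the ER values was not tested. *Hspa5*, which encodes BiP, had 10702, 10706 and 10245 normalized counts in the controls and 12548, 10554 and 12377 in the treated tumors (log2 fold change 0.16 ± 0.16, SE). *Hsp90b1* (GRP94) had 10137, 8726 and 8213 in the controls and 12473, 9639 and 11358 in the treated tumors (0.30 ± 0.18, SE). For both genes treated tumor 2 lay within the range of the controls while the other 2 treated tumors lay above it.

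Of the 4 J-domain genes in the unfolded protein response list, *Dnajb11*, *Dnajb9* and *Dnajc3* gave log2 fold changes of 0.24 to 0.30 and *Dnajc10*, an ER reductase, gave 0.05 ± 0.16 (SE). *Dnajb11*, which brings substrates to BiP, had 1218, 1083 and 1089 in the controls and 1293, 1303 and 1397 in the treated tumors, which did not overlap (0.24 ± 0.13, SE). *Dnajb9*, which takes part in ER-associated degradation, had 424, 322 and 323 in the controls and 402, 394 and 520.0 in the treated tumors (0.30 ± 0.19, SE). *Dnajc3*, which is also known as an inhibitor of stress kinases that act on eIF2 alpha, had 1464.5, 1610.5 and 1339 in the controls and 1547, 1729 and 2178 in the treated tumors (0.29 ± 0.17, SE). The groups of *Dnajb9* and *Dnajc3* overlapped, and without treated tumor 3 their log2 fold changes were 0.17 and 0.16. Of 7 members of the unfolded protein response list, 7 had a log2 fold change above 0, with a median of 0.24. Without control tumor 1 it was 5 of 7, with *Hspa13* at -0.09 and *Dnajc10* at -0.05, and without treated tumor 3 it was 6 of 7 with a median of 0.16. None of the 7 had an unadjusted p under 0.05 (beside 8.77% of all genes higher), and 1 had groups that did not overlap (beside 10.9% higher).

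*Dnajc18*, an ER membrane J-domain protein, had the smallest p among the ER members. Its normalized counts were 257, 211 and 189.7 in the controls and 335, 337 and 340.4 in the treated tumors, which were close to each other and above every control. The log2 fold change was 0.63 ± 0.17 (SE, n = 3 per group) with a limma adjusted p of 0.229, and 0.0136 without control tumor 1. *Dnajc25* had 149.7, 174 and 156 in the controls and 197, 185 and 199.99 in the treated tumors, also without overlap (0.28 ± 0.17, SE). *Dnajc14* was apart as well, with a log2 fold change of 0.25. *Dnajb14*, an ER membrane J-domain protein, was the exception in direction, with 437, 472 and 429 in the controls and 403, 410.4 and 389 in the treated tumors (-0.15 ± 0.14, SE), and its groups did not overlap. Its relative *Dnajb12* had 337 to 460.4 in the controls and 437 to 504 in the treated tumors.

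Genes of ER stress and folding that are no members were compared beside them. Of 20 such genes 12 had a log2 fold change above 0 and 8 below, with a median of 0.10, or 10 of 20 and a median of 0.033 without treated tumor 3 and 11 of 20 and 0.0552 without control tumor 3. *Sdf2l1*, an ER stress-inducible partner of BiP and its J-domain proteins, had 662, 702 and 802 normalized counts in the controls and 370.4, 344 and 387.5 in the treated tumors. This went against the members, with a log2 fold change of -0.97 ± 0.15 (SE, n = 3 per group) and a limma adjusted p of 0.166. *Herpud1*, a part of ER-associated degradation, had 927.5, 562 and 593 in the controls and 966, 1089 and 1016 in the treated tumors (0.60 ± 0.21, SE), and *Sec63*, a J-domain protein of the translocon, had 881, 989 and 908.5 in the controls and 1175, 1235 and 1310.2 in the treated tumors (0.42 ± 0.13, SE). *Ddit3*, picked after its values were seen, had 288, 144.5 and 137.5 in the controls and 266.5, 266 and 335 in the treated tumors. Its log2 fold change was 0.68 ± 0.30 (SE, limma adjusted p 0.315), and 1.02 without control tumor 1. Without that tumor the adjusted p was 0.00399 for *Sdf2l1*, 0.00587 for *Herpud1*, 0.00842 for *Ddit3* and 0.0666 for *Sec63*. Of the 20 genes 2 then passed higher (beside 12.0% of all genes) and 1 lower (beside 9.88%), so genes of the same response differed in direction.

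The mitochondrial members were mostly lower, with *Hspa9* as the exception. *Hspa9* had 3809, 3736 and 3551 normalized counts in the controls and 4753, 3989.7 and 4567 in the treated tumors, which did not overlap (log2 fold change 0.26 ± 0.14, SE, n = 3 per group, limma adjusted p 0.398). *Hspe1* (HSP10) had 1532, 2383 and 3174 in the controls and 1656, 1286 and 1065 in the treated tumors, which overlapped through control tumor 1. Its log2 fold change was -0.78 ± 0.28 (SE) with a limma adjusted p of 0.258, and -1.06 with an adjusted p of 0.0121 without control tumor 1. *Hspd1* (HSP60) had 2354, 3584 and 3608 in the controls and 3825, 2714 and 2595 in the treated tumors (log2 fold change -0.06 ± 0.23, SE).

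*Hspd1* and *Hspe1* share a promoter region and their proteins form 1 chamber, yet their counts did not keep one ratio. The ratio of *Hspe1* to *Hspd1* counts was 0.651, 0.665 and 0.879 in the controls and 0.433, 0.474 and 0.410 in the treated tumors, a mean of 0.732 ± 0.128 against 0.439 ± 0.0322 (SD, n = 3 per group). Every treated tumor lay below every control, including control tumor 1, and the exact two-sided permutation test gave p = 0.1, the smallest this design allows. This ratio was chosen after the values were seen, so the test only restates that the groups did not overlap. Copies of these genes in the annotation (*Hspd1-ps3* and 1 copy of *Hspe1*) had a mean of 0.0 normalized counts.

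*Dnajc15*, an inner membrane J-domain protein known to restrain respiratory complex I, had 425.5, 428 and 531 normalized counts in the controls and 271, 303 and 337 in the treated tumors. The groups did not overlap, with a log2 fold change of -0.60 ± 0.17 (SE, n = 3 per group) and a limma adjusted p of 0.229, or 0.0317 without control tumor 1. *Dnajc19*, a part of the import motor, had 430.0, 657 and 929.6 in the controls and 447, 438 and 346 in the treated tumors (-0.65 ± 0.28, SE, limma adjusted p 0.303). It was -0.94 without control tumor 1, with an adjusted p of 0.0150, and -0.38 without control tumor 3. *Dnajc19* is outside the rule for named genes and was picked after its values were seen. Like *Hspe1*, it had its lowest control value in control tumor 1 and its highest in control tumor 3, and in both genes control tumors 3 and 2 were the highest of all and treated tumor 1 came next, as in the proliferation sums. The part of proliferation in these values was not tested. *Dnaja3*, a partner of mortalin, ranged from 464 to 534 in the controls and from 428 to 491 in the treated tumors.

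The other members gave low counts or small differences. *Hspa12b*, a distant HSP70 relative of endothelial cells, had 229, 246 and 217 in the controls and 183, 223 and 209 in the treated tumors (log2 fold change -0.17 ± 0.17, SE). It did not follow the endothelial markers, of which 9 of 9 had a log2 fold change above 0 with a median of 1.14. *Hspa12a* ranged from 109 to 256 in the controls and from 155 to 172 in the treated tumors. *Hspb11*, a part of intraflagellar transport, ranged from 76.1 to 102 and from 61.1 to 99.9. *Dnajc27*, *Dnajc28* and *Dnajb13* overlapped between groups, the last 2 at counts between 2.17 and 30.4.

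Of the 9 members under the minimum count, *Dnajb8* and *Dnajc5g* had 0 reads in all tumors, which allows up to 3 reads or a normalized count of 2.29 to 3.38 in each, for counting error only. *Dnajb7* and *Dnajc5b* had 1 read in 1 tumor each. *Dnajb3*, a gene known from testis, had 11, 4 and 3 reads in the controls and 4, 1 and 0 in the treated tumors. *Hspb3*, *Hspb9*, *Dnajc6* (auxilin, which uncoats clathrin vesicles) and *Dnajc22* had between 0 and 9 reads per tumor. With no minimum count the unadjusted p was 0.0429 for *Dnajb3* and 0.304 for *Dnajc22* (limma adjusted p 0.402 and 0.709), from reads too few to set a size for either difference.

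The regulators and partners of the members were described as lists of their own. Of the heat shock factors, *Hsf1*, the main activator, had 407.5, 631 and 793 normalized counts in the controls and 571, 428 and 340.4 in the treated tumors (log2 fold change -0.43 ± 0.29, SE, or -0.70 without control tumor 1). *Hsf2* and *Hsf4* were also below 0 (-0.19 each), though 1 of the 3 was above 0 without treated tumor 3, and the median of the 3 was -0.45 without treated tumor 1 and -0.30 without control tumor 1. *Hsf5* was under the minimum count. Of 19 co-chaperones of HSP70 and HSP90, 13 had a log2 fold change below 0, with a median of -0.25, or -0.14 without control tumor 3. In 4 of the 19 the groups did not overlap, lower in the treated tumors, beside 9.37% of all genes. Their summed counts were 18396, 23822 and 25973 in the controls and 20882, 17823 and 16848 in the treated tumors, with control tumors 3 and 2 the highest and treated tumor 1 and control tumor 1 next, as in the proliferation sums. *Cdc37*, which brings kinases to HSP90, had 2048, 2293 and 2411.5 in the controls and 1723, 1708 and 1622 in the treated tumors, without overlap (-0.42 ± 0.14, SE, limma adjusted p 0.242). None of the 19 passed with all tumors in the limma fit, and 1 was lower at an unadjusted p under 0.05, beside 7.49% of all genes. Without control tumor 1, none was higher at an adjusted p of 0.05, beside 12.0% of all genes, and 5 were lower, beside 9.88%. The 8 genes of the cytosolic chaperonin TRiC all had a log2 fold change below 0, with a median of -0.20 and a range of -0.45 to -0.07, also under both other scalings. The median was -0.39 without control tumor 1, -0.34 without treated tumor 1 and -0.11 without control tumor 3, with all 8 below 0 each time. In 1 of the 8 the groups did not overlap, lower in the treated tumors, beside 9.37% of all genes. Without control tumor 1, 1 of the 8 was lower at an adjusted p of 0.05, beside 9.88% of all genes. This was *Cct7*, at -0.69 (limma adjusted p 0.00973), or -0.45 (0.338) with all tumors. The summed TRiC counts were 24733, 31450 and 34675 in the controls and 29587, 23561 and 23485 in the treated tumors. As in the proliferation sums and the co-chaperone sums, control tumors 2 and 3 were the highest, followed by treated tumor 1 and then control tumor 1, and the part of proliferation in either list was not tested. The TRiC genes moved together over the 6 tumors, with a median r of 0.888 over 28 pairs, beside 0.470 over 21 pairs of the unfolded protein response members.

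Of 10 genes of mitochondrial protein quality that are no members, 7 had a log2 fold change below 0, with a median of -0.15. This median turned on single tumors, at -0.29 without control tumor 1, -0.0808 without treated tumor 3 and -0.0131 without control tumor 3, where 6 of 10 were below 0. *Hscb*, a mitochondrial J-domain protein of iron-sulfur cluster assembly, had 208, 144.5 and 182 normalized counts in the controls and 86.3, 116 and 124 in the treated tumors (-0.71 ± 0.24, SE, limma adjusted p 0.244). Every treated tumor was below every control, as for *Dnajc15*. *Lonp1*, a protease of the matrix that was named after its values were seen, was apart in the other direction, with 884, 820.5 and 827.5 in the controls and 948, 897 and 1059 in the treated tumors.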

How the data were processed

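Bulk RNA of 6 tumors (3 per group by the labels) was analysed. The authors trimmed reads with fastp 0.19.5, quantified them with Salmon 1.5.1 on GENCODE vM27 and used DESeq2 1.22.1, per the labels and the methods. The authors deposited 1 table of log2 values per gene and tumor, whose transformation is not stated. The shape of the deposited log2 values matched a variance-stabilizing transformation, whose inverse gave whole reads for 100.0% of 325854 values (tolerance 1e-06, largest gap 2.5e-09). The planned unit was normalized counts, so these were recovered first. The 13963 genes reaching a mean of 10 normalized counts were fitted with limma 3.58.1 (R 4.3.3, trend, group as the sole term) on log2(normalized count + 1), which understates the fold changes of low genes. P-values were two-sided and adjusted by Benjamini-Hochberg over all genes tested. The fit was tested on simulated data.

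Symbols came from GENCODE vM21 on GRCm38 for 51484 identifiers. As the authors' build differs, positions are given only for RefSeq promoter windows. Lengths are those of the longest coding transcript, and copies were sought with blastn 2.17.0 (at least 50% of the member's transcript). No source used here states strand-specific counting, so reads of a gene and of an antisense partner cannot be told apart. Reads of near-identical copies are divided by estimation, and fragment bias cannot be examined from these values. Total reads were 9643535, 9143806 and 9186789 in the controls and 13258258, 9277019 and 11513555 in the FF-10101 group.

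The members and lists were chosen with earlier results of these data known. Named members are 17 set by role, any past an adjusted p of 0.05, and the 5 largest rises and falls among those whose groups do not overlap. For companion lists they are the 2 largest rises and falls with an unadjusted p under 0.05, and other members are given by range or by role. Alternatives were pseudocounts of 0.5 and 10, no minimum, a mean of at least 50, 75th percentile scaling, quantile normalization, the deposited values, limma-voom, no trend, each tumor left out in turn, the replicate number as a block, and, chosen after seeing the data, *Hspa1a* and *Hspa1b* summed.

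Other marker lists gave these summed normalized counts in control tumors 1, 2 and 3 and then FF-10101 tumors 1, 2 and 3. Macrophage markers gave 62157, 35924, 36087, 22216, 30965 and 31018. T cell markers gave 2062, 837, 792, 984, 1665 and 1754. Neutrophil markers gave 1923, 2240, 1896, 3022, 2532 and 2723. Smooth muscle and pericyte markers gave 4799.8, 7094, 8178.5, 5386, 7318 and 5481. Keratinocyte markers gave 39.4, 41.3, 203, 992, 35.8 and 21.3. Adipocyte markers gave 557, 259, 535, 294, 664 and 1243.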

Additional observations from a re-analysis of the deposited data

How the results depend on the processing

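No member passed an adjusted p of 0.05 with all tumors or under any alternative except leaving tumors out, where the count ran from 0 to 11 and was above 0 only without control tumor 1. Over the single tumors left out, the count of all genes ran from 1 to 3051, members with an unadjusted p under 0.05 from 4 to 20, and members whose groups did not overlap from 15 to 36, the highest value each time without control tumor 1. Fewer tumors overlap less often by construction, and 57.1% of members and 54.1% of all genes did not overlap without control tumor 1, and 36.5% and 39.2% without FF-10101 tumor 1 (23 members), and 30.2% and 23.8% without FF-10101 tumor 2, beside 20.6% and 20.2% with all tumors. Over all genes, 17 passed with no minimum count and 3 at a mean of at least 50. Same-numbered tumors did not deviate together (correlations of -0.2884, -0.0397 and -0.277), so the numbers were not used as pairs, and with the replicate number as a block 1 gene passed over all genes, 6 members had an unadjusted p under 0.05 and no member passed. The log2 fold change of *Hspa1a* was 0.87 when summed with *Hspa1b*. Over the single tumors left out it ran from -0.38 to 0.0875 for *Hspb1*, from -0.032 to 0.14 for *Dnaja1* and from -0.26 to 0.0455 for *Hspd1*. Of 401 alternative values of 25 named members, 386 kept their direction and side of the threshold and 7 passed it newly, all without control tumor 1. The causes were not tested. The median over members kept its sign throughout, from 0.036 to 0.0818. With 3 tumors per group an exact test cannot go below 0.1, and members with under 10 counts are limited by depth.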
